A study of Homo sapiens with 10 samples.

Results

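A set of 10 genes for secreted proteins of the extracellular matrix and its matricellular modulators were followed through 7 human ovarian cancer cell lines: SPARC, FN1, THBS1, TGFBI, CTGF, CYR61, LOX, TIMP1, TIMP3 and POSTN. These genes were picked with earlier results of these data known. Their transcripts were taken by name, as every annotated transcript whose gene name is a member. The members make up 10 of the 57110 gene identifiers in the data, with 29 transcripts. RNA was read as long nanopore reads, and the libraries were made to benchmark the transcript software Isosceles. SK-OV-3, COV362, COV504, OVMANA, OVTOKO and OVKATE had 1 library each on the PromethION instrument. IGROV-1 had 2 PromethION libraries and 2 libraries on the smaller MinION instrument. No treatment or engineered allele is labelled for any line, and each is an established cancer cell line grown without stroma. Levels are the deposited values scaled to the total counts of a library (CPM), which are not divided by transcript length, so a level is compared only between lines for the same gene. Library totals were 1729782 to 3666224 counts with a median of 2287873, and 0 counts of a gene allow up to 3, which is 0.643 CPM over both IGROV-1 PromethION libraries and 1.18 (COV362) to 1.73 CPM (OVTOKO) in the other lines. A fold given as at least a value sets an observed level against this limit and leaves out the counting error of the observed level.

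The extracellular matrix is built from adhesive glycoproteins such as fibronectin, to which cells bind through integrins. Matricellular proteins sit in the same matrix without being structural parts of it and alter how cells adhere, spread and respond to growth factors. Enzymes such as LOX cross-link the collagen and elastin fibres, and TIMP proteins inhibit the metalloproteinases that degrade them. In ovarian cancer these genes are known from both tumour cells and stromal fibroblasts.

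Epithelial markers were present in every library but not all of them in every line. Their summed level was 404.2 to 9692 CPM over 7 genes. In IGROV-1 the sum was mostly KRT18 and KRT19, while KRT7 and CDH1 had 0 counts in all 4 libraries and EPCAM was at most 1.55 CPM. OVTOKO had 0.58 CPM of KRT19 and of CLDN4 and 2.31 CPM of CDH1. Of 5 Muellerian markers PAX8 (84.1 to 339.8 CPM) and SOX17 (10.4 to 146.4 CPM) were found in all 10 libraries. EMX2 had 0 counts in OVMANA, OVTOKO and IGROV-1, MUC16 had 0 in OVTOKO and SK-OV-3 and was under 1 CPM in IGROV-1, and WT1 was 76.2 CPM in OVKATE, 0.39 in COV362 and 0 in the other 8 libraries. Leukocyte markers summed to 16.3 CPM at most and endothelial markers to 27.6 CPM at most. Of 8 fibroblast markers 7 had a row of their own, and their sum was 0 CPM in OVMANA, 1.16 in OVTOKO, at most 1.71 in IGROV-1, 106.8 in COV504, 112.4 in SK-OV-3, 586.9 in COV362 and 1184 in OVKATE. DCN, PDGFRB, COL6A3 and FAP were under 10 CPM in all 10 libraries, and the higher sums came from THY1 in OVKATE (1184 CPM), from COL1A2 and THY1 in COV362 (429.4 and 156.7 CPM), from LUM and COL1A2 in SK-OV-3 (52.7 and 57.2 CPM) and from THY1 and COL1A2 in COV504 (65.4 and 31.6 CPM). The IGROV-1 replicates were not the same library deposited again: their chi-square divided by its degrees of freedom was 4.36 on PromethION (9659 genes) and 6.73 on MinION (10187 genes).

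Most members were at or near 0 in IGROV-1 and OVMANA and most reached over 100 CPM in at least 1 other line, and CYR61 and TIMP1 were the members present in every library. Each line was compared with IGROV-1 PromethION by the quasi-likelihood test of edgeR, with Benjamini-Hochberg adjustment over all 13030 genes tested. Fitted log2 differences use TMM scaling and so need not equal the ratio of the printed CPM, while ratios and folds are of CPM. The TMM factor was 1.19 in OVKATE and 1.13 in SK-OV-3, which lowers their fitted values, but 0.92 in OVTOKO and 0.93 in OVMANA. Of the 10 members 9 passed the filter on low counts and POSTN did not. In COV504, 9 members differed, 8 higher and 1 lower, beside 43.5% of all genes tested (24% higher and 19.6% lower). In COV362, 8 differed, 7 higher and 1 lower, beside 42.5% of all genes (23.7% and 18.8%). In OVKATE, 8 differed, 7 higher and 1 lower, beside 49.2% (26.8% and 22.4%). In SK-OV-3, 7 differed, 6 higher and 1 lower, beside 41.8% (22% and 19.8%). In OVTOKO, 6 differed, 6 higher and 0 lower, beside 34.1% (18.2% and 15.9%). In OVMANA, 4 differed, 3 higher and 1 lower, beside 35.4% (18.9% and 16.5%). The median log2 change of the 9 members, with genes at 0 counts held at 3, was 5.24 in SK-OV-3, 4.90 in COV504, 4.13 in COV362, 2.93 in OVKATE, 2.65 in OVTOKO and 0.75 in OVMANA, beside medians of all genes between -0.01 and 0.04. Members that are absent from several lines passed the filter through the lines in which they are high, so these counts and medians describe the genes and support nothing further. The spread in this fit comes from the IGROV-1 libraries alone, with 2 residual degrees of freedom. The fit takes every line with 1 library to vary as they do. Whether the IGROV-1 replicates are separate cultures is not given in the labels, so p-values measure the spread between these libraries. Differences of replicate 2 from replicate 1 correlated between the instruments (r = 0.37 over genes), so the 2 pairs may not be independent. SPARC, TGFBI, CTGF, LOX and TIMP3 had 0 to 3 counts in each IGROV-1 library, so their spread is largely borrowed from other genes. Lines said not to differ beyond their spread are judged by this modelled spread.

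**Figure D1:**
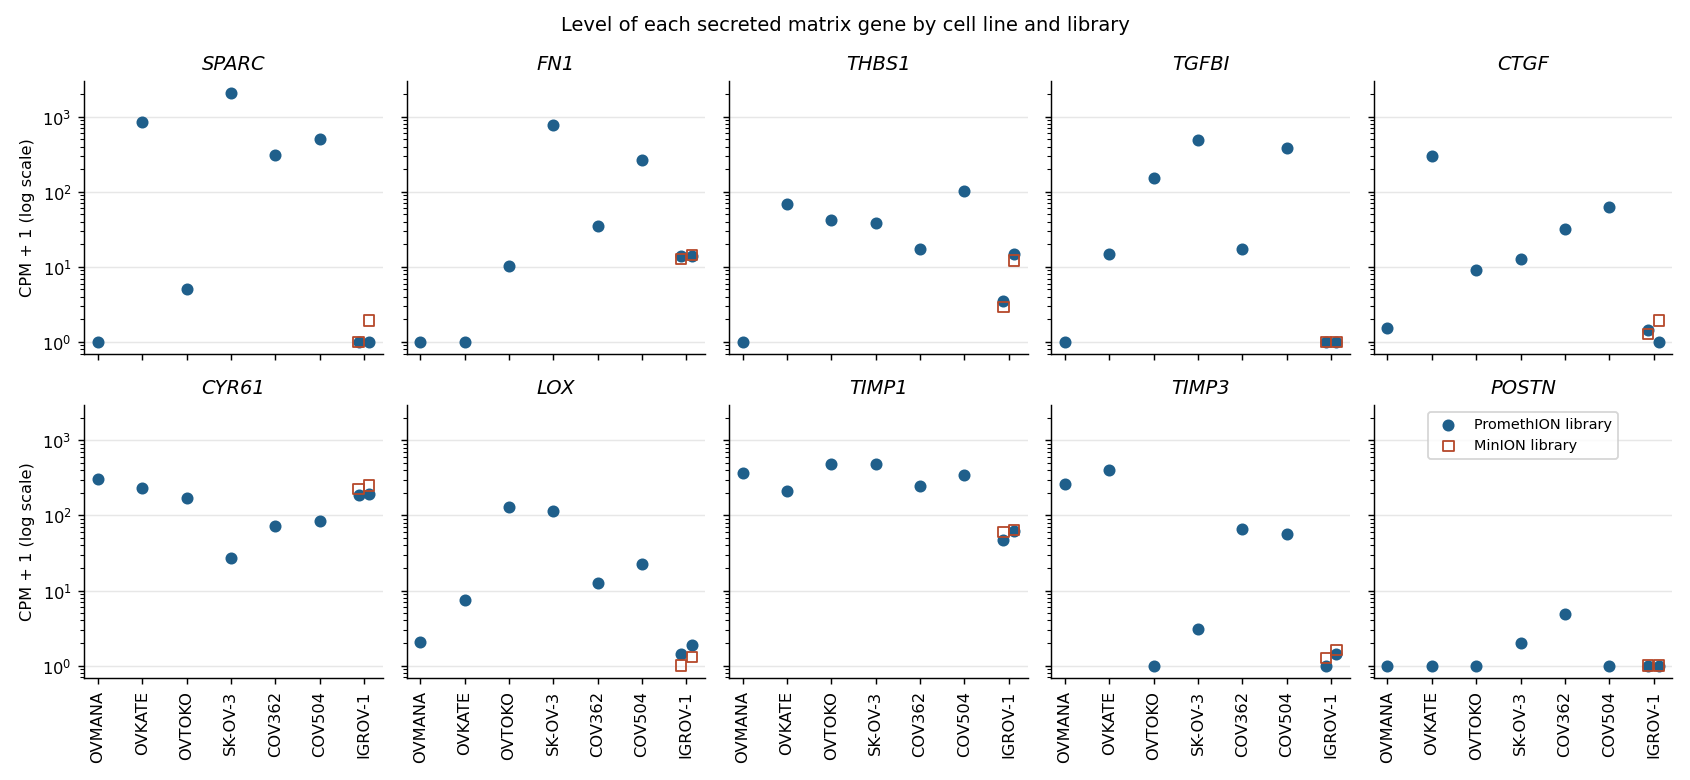
Level of the 10 genes (CPM + 1, log axis) in each library, by cell line; filled circles are PromethION libraries and open squares MinION libraries, with the IGROV-1 replicates side by side (replicate 1 left, replicate 2 right). CYR61 and TIMP1 were detected in all 10 libraries, TGFBI was at 0 counts in all 4 IGROV-1 libraries and in OVMANA, and POSTN stayed under 4 CPM everywhere.

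The adhesive glycoproteins come first. FN1 (ENSG00000115414, chr2:215360440-215436172, minus strand, GRCh38) encodes fibronectin, the integrin ligand on which cells assemble a fibrillar matrix. Its level was 782.0 CPM in SK-OV-3, 265.6 in COV504, 34.1 in COV362, 9.25 in OVTOKO, and 0 in OVKATE and OVMANA. IGROV-1 had 12.8 and 12.9 CPM on PromethION and 11.7 and 13.3 on MinION. SK-OV-3 and COV504 were thus far above the rest, while the 4 IGROV-1 libraries lay close together. Against IGROV-1 PromethION, FN1 was higher in SK-OV-3 by 5.69 ± 0.17 (SE) on the log2 scale (edgeR adjusted p = 7.5e-07), in COV504 by 4.29 ± 0.18 (adjusted p = 2.0e-06) and in COV362 by 1.45 ± 0.21 (adjusted p = 0.0011). FN1 was at least 8.02-fold lower in OVMANA and at least 8.66-fold lower in OVKATE, and in OVTOKO the log2 difference of -0.39 ± 0.31 did not pass (adjusted p = 0.46). In the order of levels, SK-OV-3 exceeded COV504 by 1.41 on the log2 scale (edgeR adjusted p = 0.00052) and COV504 exceeded COV362 by 2.84 (adjusted p = 3.7e-05). Tests between pairs of lines were adjusted over all genes and all 21 pairs together.

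TGFBI (ENSG00000120708, chr5:136028895-136063817, plus strand) encodes a secreted adhesion protein induced by TGF-beta that binds collagens and integrins. It had 485.7 CPM in SK-OV-3, 385.3 in COV504, 152.0 in OVTOKO, 16.1 in COV362 and 13.8 in OVKATE. OVMANA and all 4 IGROV-1 libraries had 0 counts. The lines therefore fell into those with over 100 CPM, those with 10 to 20 CPM and those without a count. Against IGROV-1 PromethION the level was at least 755.9-fold higher in SK-OV-3, at least 599.7-fold in COV504, at least 236.6-fold in OVTOKO, at least 25-fold in COV362 and at least 21.6-fold in OVKATE, and the 5 differences passed edgeR's test with adjusted p between 4.7e-06 and 0.00053. SK-OV-3 and COV504 did not differ beyond the modelled spread (log2 difference 0.18, 95% interval -0.28 to 0.64, edgeR adjusted p = 0.50), nor did COV362 and OVKATE (0.56, -0.24 to 1.36, adjusted p = 0.24). COV504 exceeded OVTOKO by 1.19 (adjusted p = 0.0055), and OVTOKO exceeded COV362 by 3.27 (adjusted p = 0.00025). Of the 2 annotated TGFBI transcripts, ENST00000442011 held over 99% of the counts in each line with the gene.

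POSTN (ENSG00000133110, chr13:37562583-37598844, minus strand) encodes periostin, an adhesion protein related to TGFBI and typical of activated fibroblasts. It had 10 counts in COV362 (3.92 CPM, 95% Poisson interval 1.88 to 7.20) and 2 counts in SK-OV-3 (1.01 CPM, 0.12 to 3.66). The other 8 libraries had 0 counts. It did not pass the filter and was not tested. The observed level in COV362 was 6.10-fold above the limit that 0 counts allow over both IGROV-1 PromethION libraries.

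Among the matricellular proteins, SPARC (ENSG00000113140, chr5:151661096-151687165, minus strand), a collagen-binding protein that reduces cell adhesion, had the widest range. Its level was 2043 CPM in SK-OV-3, 843.3 in OVKATE, 510.3 in COV504, 312.6 in COV362 and 4.05 in OVTOKO, where it rested on 7 counts. OVMANA and IGROV-1 PromethION replicates 1 and 2 had 0 counts, as had MinION replicate 1, and MinION replicate 2 had 3 counts. The 4 lines over 300 CPM did not overlap with the others. SPARC was at least 3179-fold higher than in IGROV-1 PromethION in SK-OV-3, at least 1312-fold in OVKATE, at least 794.2-fold in COV504 and at least 486.6-fold in COV362 (edgeR adjusted p = 2.6e-06, 2.9e-06, 4.5e-06 and 8.2e-06). In OVTOKO the observed 4.05 CPM (95% Poisson interval 1.63 to 8.34) was 6.30-fold above the limit of 0 counts (edgeR adjusted p = 0.017). Without IGROV-1 MinION replicate 1 the OVTOKO difference did not pass (edgeR adjusted p = 0.053). SK-OV-3 exceeded OVKATE by 1.35 ± 0.26 (SE) on the log2 scale (edgeR adjusted p = 0.0064). OVKATE and COV504 did not differ beyond their spread (0.50, 95% interval -0.10 to 1.11, adjusted p = 0.17), nor did COV504 and COV362 (0.59, -0.03 to 1.20, adjusted p = 0.12). The 4 lines over 300 CPM were also those in which the fibroblast markers summed to over 100 CPM. Within them the sums did not follow the order of SPARC, at 112.4 CPM in SK-OV-3, 1184 in OVKATE, 106.8 in COV504 and 586.9 in COV362. In OVKATE the sum was THY1 alone, and DCN, PDGFRB, COL6A3 and FAP were under 10 CPM in all 10 libraries. The part of these markers in the SPARC levels was not tested. In RNA from a whole culture, fewer cells with a transcript and less of it per cell cannot be told apart.

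THBS1 (ENSG00000137801, chr15:39581093-39599466, plus strand) encodes thrombospondin-1, an inhibitor of angiogenesis that also activates latent TGF-beta. It had 102.8 CPM in COV504, 68.3 in OVKATE, 41.0 in OVTOKO, 37.0 in SK-OV-3, 16.5 in COV362 and 0 in OVMANA. IGROV-1 had 2.56 and 13.7 CPM in PromethION replicates 1 and 2, and 1.91 and 11.1 CPM in MinION replicates 1 and 2. Replicate 2 was thus higher on both instruments, by 4.65-fold on PromethION and 4.82-fold on MinION with 0.5 CPM added to each value. Of 10041 genes, 13 were at least 3-fold higher in replicate 2 on both instruments, 1 was at least 3-fold lower on both, and 0 moved that far in opposite directions. The keratin KRT18, an epithelial marker, was also higher in replicate 2, with 262.7 and 1041 CPM on PromethION and 243.6 and 1080 on MinION. The other epithelial markers did not share a rise of this size on both instruments. KRT19 had 140.1 and 176.1 CPM on PromethION and 154.4 and 177 on MinION. KRT8 was lower in replicate 2 on PromethION (6.41 and 5.15 CPM) and higher on MinION, at 11.43 CPM in replicate 2. KRT7 and CDH1 had 0 counts, and EPCAM and CLDN4 were at most 1.545 and 1.281 CPM. The part of the KRT18 difference in the THBS1 levels was not tested.

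THBS1 was higher than in IGROV-1 PromethION in COV504 by 3.57 ± 0.62 (SE) on the log2 scale (edgeR adjusted p = 0.0023), in OVKATE by 2.76 ± 0.66 (adjusted p = 0.0090) and in OVTOKO by 2.40 ± 0.74 (adjusted p = 0.035). SK-OV-3 (1.95 ± 0.73, adjusted p = 0.062), COV362 (1.05 ± 0.82, adjusted p = 0.33) and OVMANA (at 0 counts, adjusted p = 0.12) did not pass. No neighbours in the order of its levels differed beyond their spread, and the log2 difference between COV504 and OVKATE was 0.81 (95% interval -0.55 to 2.17, edgeR adjusted p = 0.32). These calls changed with the libraries and the settings. Without PromethION replicate 2 the SK-OV-3 difference was 3.60 (edgeR adjusted p = 3.0e-11) and that of COV362 2.70 (adjusted p = 1.1e-05), and without PromethION replicate 1 the SK-OV-3 difference was 1.19 (adjusted p = 0.0048). OVMANA passed without either library (edgeR adjusted p = 7.4e-08 without replicate 1 and 0.029 without replicate 2), OVTOKO did not pass without MinION replicate 1 (adjusted p = 0.099) or replicate 2 (adjusted p = 0.075). With no filter on low counts OVTOKO did not pass (edgeR adjusted p = 0.080), nor with the 8 PromethION libraries alone (adjusted p = 0.064). SK-OV-3 passed with a filter at 10 CPM (edgeR adjusted p = 0.048) and after thinning to equal depth (adjusted p = 0.036). Under DESeq2 the calls in COV504, OVKATE and OVTOKO were lost (adjusted p = 0.15, 0.28 and 0.46).

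CTGF (CCN2) and CYR61 (CCN1) belong to the CCN family of matricellular proteins, which bind integrins and heparan sulphate, and both are textbook targets of the coactivators YAP and TAZ, which act through TEAD factors on DNA. CTGF (ENSG00000118523, chr6:131948176-131951373, minus strand) had 299.2 CPM in OVKATE, 61.8 in COV504, 30.6 in COV362, 11.6 in SK-OV-3, 8.09 in OVTOKO and 0.53 in OVMANA, where it rested on 1 count. The IGROV-1 libraries had 1 and 0 counts on PromethION and 1 and 3 counts on MinION. OVKATE stood above every other line, and OVMANA and IGROV-1 were at the limit of detection. Against the single count of IGROV-1 PromethION the ratio was 1397 in OVKATE (95% counting interval 249.8 to 55275), 288.8 in COV504 (51.0 to 11486), 142.7 in COV362 (24.9 to 5707), 54.4 in SK-OV-3 (8.83 to 2241) and 37.8 in OVTOKO (5.75 to 1598), and edgeR's adjusted p lay between 1.7e-06 and 0.0025. OVKATE exceeded COV504 by 2.05 ± 0.24 (SE) on the log2 scale (edgeR adjusted p = 0.00048), COV504 exceeded COV362 by 0.90 ± 0.28 (adjusted p = 0.036), and COV362 exceeded SK-OV-3 by 1.66 ± 0.36 (adjusted p = 0.0083). SK-OV-3 and OVTOKO did not differ beyond their spread (0.22, 95% interval -0.90 to 1.33, adjusted p = 0.77).

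The stretch upstream of CTGF is shown because it holds the letters GGAATG, the core of the sequence that TEAD factors recognise, more often than that of any other member with a RefSeq promoter. The 250 bases before the RefSeq start (chr6:131951373-131951622, minus strand, GRCh38.p14) are printed 5′ to 3′ with each GGAATG in capitals.
CTGF upstream: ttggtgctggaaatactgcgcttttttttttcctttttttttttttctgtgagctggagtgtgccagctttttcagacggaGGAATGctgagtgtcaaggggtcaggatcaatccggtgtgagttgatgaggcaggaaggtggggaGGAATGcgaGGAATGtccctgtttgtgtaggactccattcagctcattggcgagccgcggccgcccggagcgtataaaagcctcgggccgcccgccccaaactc
The motif was searched as GGAATG and its reverse complement CATTCC in windows of 300 bases, 250 before and 50 after a start, and overlapping matches were allowed. CTGF held 3, SPARC 1 and THBS1 1, and FN1, TGFBI, LOX, TIMP1, TIMP3 and POSTN held 0. Of 35116 RefSeq promoters, 14.0% held at least 1 and 0.128% (45 promoters) held at least 3. Of the members 9 were matched, CYR61 being the other, and these matches describe letters in the reference, not binding in these cells.

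CYR61 (ENSG00000142871, chr1:85580761-85583962, plus strand) had 303.5 CPM in OVMANA, 230.5 in OVKATE, 171.7 in OVTOKO, 82.8 in COV504, 70.9 in COV362 and 25.8 in SK-OV-3. IGROV-1 had 184.1 and 191.1 CPM on PromethION and 223.1 and 249.0 on MinION. It was present in every library, and the 2 lines at the limit of detection for CTGF were among those with much CYR61. Against IGROV-1 PromethION it was higher in OVMANA by 0.76 ± 0.15 (SE) on the log2 scale (edgeR adjusted p = 0.0048, and 0.10 under DESeq2). It was lower in COV504 (-1.26 ± 0.17, edgeR adjusted p = 0.00054), COV362 (-1.36 ± 0.17, adjusted p = 0.00042) and SK-OV-3 (-3.09 ± 0.20, adjusted p = 1.6e-05). OVKATE and OVTOKO did not differ from IGROV-1 beyond the spread (95% intervals -0.35 to 0.34 and -0.40 to 0.30). In CPM, without TMM scaling, the ratio of OVKATE to IGROV-1 PromethION was 1.23 (95% counting interval 1.10 to 1.38). Across the 7 lines, Pearson's r of log2(CPM + 1) between CTGF and CYR61 was -0.21, given as a description over 7 lines with 1 value each. Between FN1 and CYR61 it was -0.92, and the lines with the 2 highest FN1 levels, SK-OV-3 and COV504, were among the 3 lowest for CYR61.

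**Figure D2:**
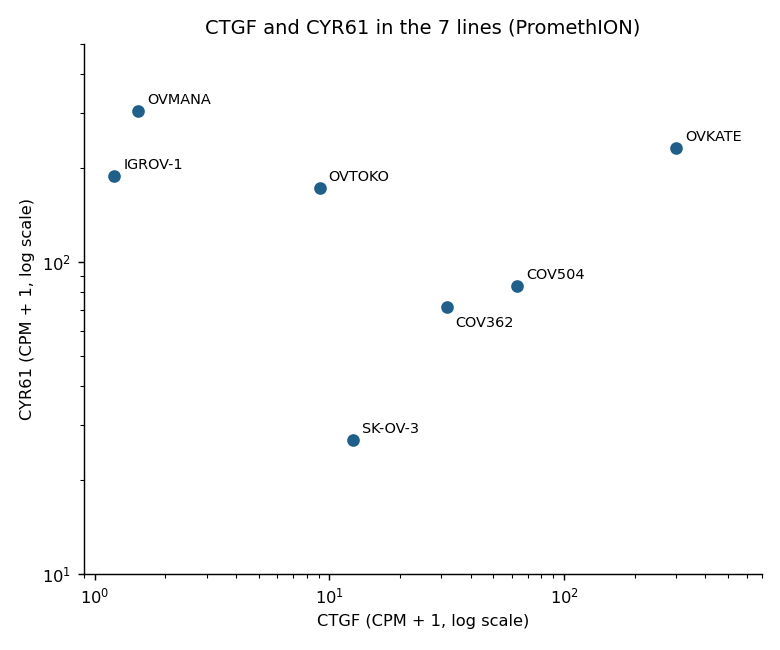
CTGF (x axis) and CYR61 (y axis) in the 7 lines, both as CPM + 1 on log axes; each point is a line on PromethION, with IGROV-1 as the mean of its 2 libraries. CTGF spans 0.21 to 299.2 CPM and CYR61 25.8 to 303.5 CPM, and OVKATE is the line with over 200 CPM of both.

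LOX (ENSG00000113083, chr5:122063195-122078360, minus strand) encodes lysyl oxidase, which starts the covalent cross-linking of collagen and elastin. Its level was 127.8 CPM in OVTOKO, 112.4 in SK-OV-3, 21.8 in COV504, 11.8 in COV362, 6.43 in OVKATE and 1.07 in OVMANA, where it rested on 2 counts. The IGROV-1 libraries had 1 and 2 counts on PromethION and 0 and 1 counts on MinION. OVTOKO and SK-OV-3 stood clear of the other lines. Against the 3 counts of IGROV-1 PromethION the ratio was 198.9 in OVTOKO (95% counting interval 67.2 to 971.6), 175.0 in SK-OV-3 (59.1 to 855.0), 33.9 in COV504 (10.9 to 170.2), 18.3 in COV362 (5.69 to 93.7) and 10 in OVKATE (2.75 to 54.7), and the 5 lines passed edgeR's test with adjusted p from 4.2e-06 to 0.0087. The OVKATE call was lost under DESeq2 (adjusted p = 0.056). OVTOKO and SK-OV-3 did not differ beyond their spread (log2 difference 0.49, 95% interval -0.04 to 1.03, edgeR adjusted p = 0.14), and SK-OV-3 exceeded COV504 by 2.21 ± 0.28 (SE, adjusted p = 0.00061). The gene overlaps SRFBP1 on the opposite strand, whose own level was at most 17.8 CPM, and the use of strand in counting is not stated in these sources.

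The inhibitors of matrix proteases differed from each other in spread. TIMP1 (ENSG00000102265, chrX:47582313-47586789, plus strand), a broad inhibitor of metalloproteinases that is secreted and diffuses, had 489.1 CPM in OVTOKO, 482.2 in SK-OV-3, 362.3 in OVMANA, 349.7 in COV504, 242.9 in COV362 and 211.2 in OVKATE. IGROV-1 had 46.1 and 61.4 CPM on PromethION and 59.2 and 63.3 on MinION. All 6 other lines lay above all 4 IGROV-1 libraries. The log2 difference from IGROV-1 PromethION ran from 1.67 ± 0.19 (SE) in OVKATE (edgeR adjusted p = 0.0002) to 3.26 ± 0.18 in OVTOKO (adjusted p = 7.7e-06), and TIMP1 passed in all 6 lines. In the order of the levels, OVKATE against IGROV-1 was the only neighbouring pair to pass (edgeR adjusted p = 0.00038 over all pairs), and the difference between OVTOKO and SK-OV-3 was 0.33 (95% interval -0.14 to 0.79, adjusted p = 0.25). The transcript ENST00000218388 held 97.7% to 99.9% of the TIMP1 counts of a library.

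TIMP3 (ENSG00000100234, chr22:32801701-32863043, plus strand) encodes the inhibitor that stays bound to the matrix and also acts on ADAM proteases. It had 407.5 CPM in OVKATE, 258.1 in OVMANA, 64.3 in COV362, 55.6 in COV504, 2.03 in SK-OV-3 (4 counts) and 0 in OVTOKO. The IGROV-1 libraries had 0 and 1 counts on PromethION and 1 and 2 on MinION. SK-OV-3 and OVTOKO, the lines with the most TIMP1, were thus among those nearly without TIMP3. Against the single count of IGROV-1 PromethION the ratio was 1903 in OVKATE (95% counting interval 340.6 to 75251), 1205 in OVMANA (215.3 to 47694), 300 in COV362 (53.1 to 11921) and 259.7 in COV504 (45.8 to 10337), and edgeR's adjusted p was 1.0e-06 to 1.1e-05. SK-OV-3 (ratio 9.46, 0.94 to 465.8, edgeR adjusted p = 0.073) and OVTOKO (adjusted p = 0.59) did not pass, and without IGROV-1 PromethION replicate 2, which holds the single count, SK-OV-3 passed (adjusted p = 0.046). OVKATE and OVMANA did not differ beyond their spread (log2 difference 0.30, 95% interval -0.17 to 0.77, adjusted p = 0.30), and OVMANA exceeded COV362 by 2.02 ± 0.22 (SE, adjusted p = 0.00035). MSLN, a mesothelial marker that is also common in ovarian carcinoma and is the gene most correlated with TIMP3 over the 7 lines, had 309.6 CPM in OVKATE, 207.3 in OVMANA, 83.1 in COV362, 16.9 in COV504, 2.03 in SK-OV-3 and 0 in OVTOKO and IGROV-1 PromethION. The other 3 mesothelial markers did not follow TIMP3 in every line. UPK3B had 68.8 CPM in OVKATE and 44.4 in OVMANA but more in IGROV-1 PromethION (7.26 and 8.16) than in COV504 (4.45) or COV362 (2.35). LRRN4 was highest in OVTOKO (6.94 CPM), and CALB2 had 0 counts in OVKATE and OVMANA. The 4 markers summed to 4.05 CPM in SK-OV-3 to 381.8 in OVKATE, and their part in the TIMP3 levels was not tested.

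**Figure D3:**
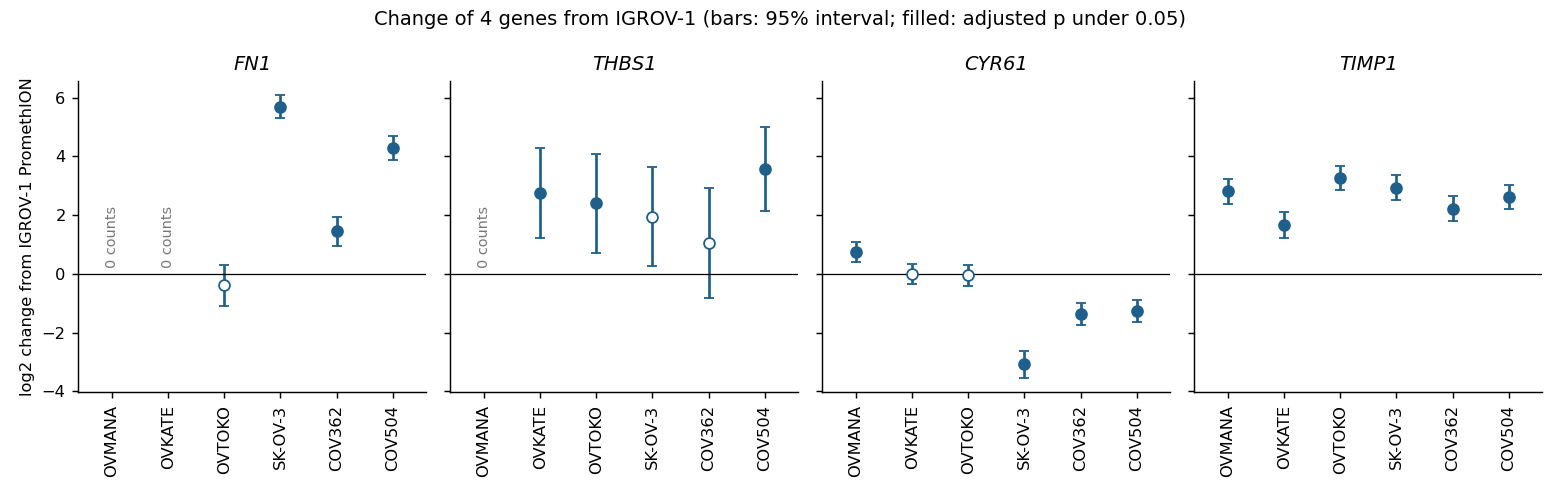
Log2 change from IGROV-1 PromethION of the 4 members with more than 3 counts there, by line, as fitted by edgeR; bars are 95% intervals, filled points have an adjusted p under 0.05, and lines at 0 counts are marked in place of a value. TIMP1 is above 0 in all 6 lines, CYR61 is lowest in SK-OV-3 at -3.09, and the intervals of THBS1 are the widest.

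Across all 7 lines, 9 of the 9 members tested differed in edgeR's joint test, where 81.3% of all genes did. Under DESeq2 the call of THBS1 was lost (adjusted p = 0.074). Over the 21 pairs of lines, 144 of 189 combinations of a member and a pair passed (76.2%), beside 35.5% of such combinations over all genes. Members that are absent from several lines passed the filter through the lines in which they are high. The members were also picked with earlier results of these data known, so these shares describe the genes and support nothing further. FN1 and CTGF differed in 19 pairs each, SPARC and TGFBI in 18, CYR61 in 17, LOX and TIMP3 in 16, TIMP1 in 13 and THBS1 in 8. The closest pair of members over the lines was TGFBI and LOX, with a Pearson's r of log2(CPM + 1) of 0.92 over 7 lines, followed by SPARC and CTGF with 0.82. These coefficients come from the same libraries and are a description.

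Fibronectin is also spliced into variants, and FN1 was the member with several abundant transcripts. The extra domains B and A (EDB and EDA) are cassette exons that each encode a whole fibronectin type III repeat, are left out of the plasma protein made by liver, and are included in embryos, wounds and tumours. Of 11 annotated FN1 transcripts, 10 are full length, at 7759 to 8905 nt, of which 3 contain EDB and 5 contain EDA. The exons are shown because the shares given next rest on them, printed 5′ to 3′ on the coding strand from the GENCODE 29 transcripts, EDB at chr2:215392931-215393203 (273 nt) and EDA at chr2:215380811-215381080 (270 nt). No letters are set in capitals.
EDB exon: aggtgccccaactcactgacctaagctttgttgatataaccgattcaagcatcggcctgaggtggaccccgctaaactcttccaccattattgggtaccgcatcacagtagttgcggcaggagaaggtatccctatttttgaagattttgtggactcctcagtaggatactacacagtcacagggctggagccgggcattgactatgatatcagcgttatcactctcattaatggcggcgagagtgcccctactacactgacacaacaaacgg
EDA exon: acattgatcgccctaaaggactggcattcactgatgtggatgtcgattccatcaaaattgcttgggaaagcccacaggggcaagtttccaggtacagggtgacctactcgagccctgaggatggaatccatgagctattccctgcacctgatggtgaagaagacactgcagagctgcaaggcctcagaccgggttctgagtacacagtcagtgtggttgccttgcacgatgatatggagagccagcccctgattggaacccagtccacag

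In SK-OV-3, 34.0% of 1541 full-length FN1 counts were assigned to transcripts with EDB (95% Wilson interval 31.6 to 36.3). The share was 4.39% of 595 counts in COV504 (3.0 to 6.33) and 0.90% of 87 counts in COV362 (0.20 to 6.23). The interval of SK-OV-3 lay clear of both others. For EDA the shares were 61.0% in SK-OV-3 (58.5 to 63.4), 57.8% in COV504 (53.8 to 61.7) and 52.6% in COV362 (42.5 to 63.0), and these intervals overlapped. The EDB transcripts of SK-OV-3 were mostly those that also hold EDA, at 30.1% of the counts (27.9 to 32.4), while transcripts with EDA alone held 30.9% in SK-OV-3, 53.9% in COV504 and 51.9% in COV362. Transcripts with neither exon held 35.2% in SK-OV-3, 41.7% in COV504 and 47.2% in COV362. Intervals cover counting error only, since each of these lines has 1 library. Full length describes the annotated transcript, not the reads.

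The 4 IGROV-1 libraries show how far such shares moved between libraries of 1 line at low counts. On PromethION the EDA share was 17.8% (7.34 to 33.6) in replicate 1 and 87.1% (70.3 to 94.7) in replicate 2, although each library held 30 FN1 counts. On MinION it was 13.6% (6.56 to 27.3) and 46.6% (32.5 to 61.1), with 43 counts each. The EDB share was 24.8% and 28.8% on PromethION and 4.02% and 45.6% on MinION. Some annotated FN1 transcripts end over 200 nt upstream of the most downstream 3′ end. In IGROV-1 replicates 1 and 2 these held 82.3% and 3.05% of the counts on PromethION and 85.7% and 35.7% on MinION. They held 30.2% in SK-OV-3, 36.8% in COV504 and 46.3% in COV362. Exons and 3′ ends are joined in the annotated transcripts, and the part of 3′ end assignment in the exon shares was not tested. The intervals of the IGROV-1 replicates did not overlap for EDA on either instrument or for EDB on MinION, and the gap in EDB between the MinION replicates was larger than that between SK-OV-3 and COV504. OVTOKO had 16 FN1 counts, of which 62.1% were assigned to EDB (38.6 to 81.5).

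**Figure D4:**
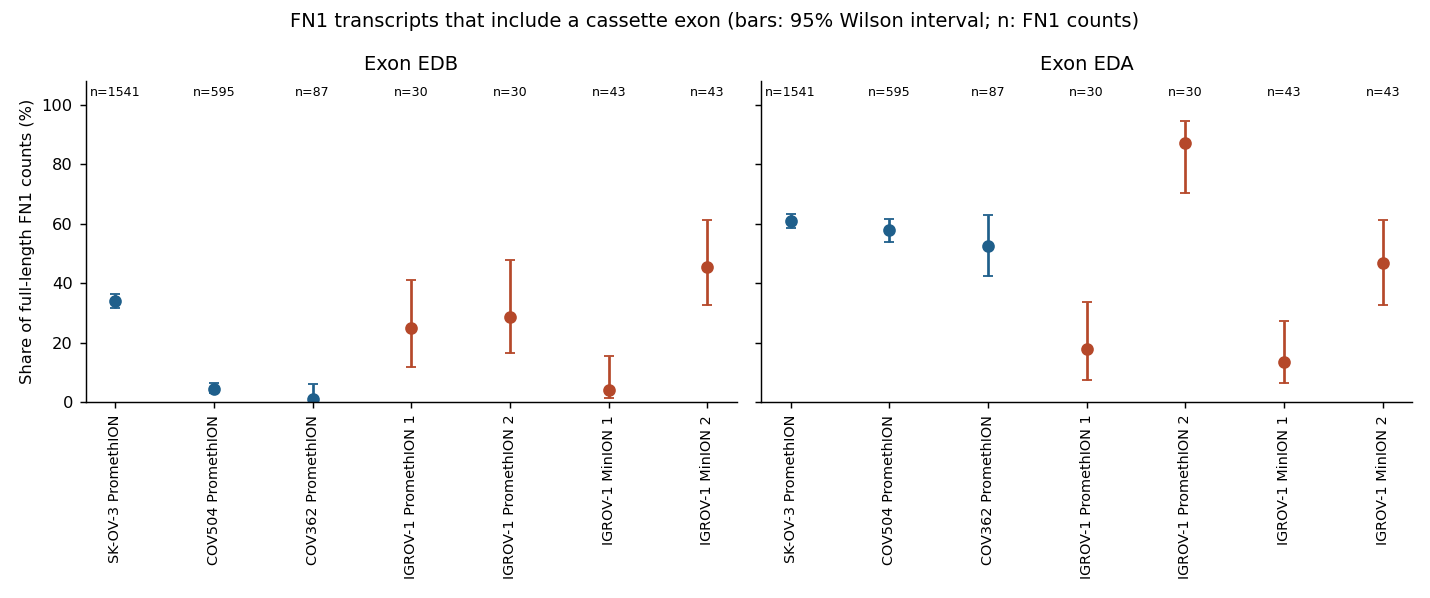
Share of full-length FN1 counts (y axis, percent) assigned to transcripts with exon EDB (left) and EDA (right) in the 3 lines with most FN1 (blue) and the 4 IGROV-1 libraries (red); bars are 95% Wilson intervals and n is the number of FN1 counts. EDB was 34.0% in SK-OV-3 against 4.39% in COV504 and 0.90% in COV362, and the IGROV-1 libraries range from 13.6% to 87.1% for EDA.

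Transcript usage within genes was tested with edgeR over the same libraries. Against IGROV-1, FN1 and TIMP1 were the members that could be tested, and 0 of them were called in any of the 6 lines (adjusted p = 1 in each), with 0 at an unadjusted p under 0.05. The share of all genes called was 1.35% in OVTOKO, 2.07% in SK-OV-3, 2.56% in COV504, 2.75% in OVMANA, 2.98% in COV362 and 4.97% in OVKATE, and FN1 had 0 counts in OVMANA and OVKATE. Tests between the lines with FN1, added after these shares had been seen, gave in edgeR an unadjusted p of 0.046 and an adjusted p of 0.48 for SK-OV-3 against COV504 (adjusted p 0.82 for SK-OV-3 against COV362 and 1 for COV362 against COV504), beside 0.402%, 0.719% and 0.444% of all genes called in these pairs. FN1 was then reduced to transcripts with and without EDB, also after the shares had been seen. The difference in use of EDB transcripts between SK-OV-3 and COV504 was 2.05 on the natural-log scale. The p per gene in edgeR was 0.00033 unadjusted and 0.056 adjusted over all genes and the 3 pairs. Between SK-OV-3 and COV362 the difference was 3.27 on that scale (p per gene in edgeR 0.0036 unadjusted and 0.18 adjusted). Against IGROV-1 the use of EDB transcripts gave an unadjusted p of 0.016 in COV504 and 0.021 in COV362, which did not pass in edgeR after adjustment (adjusted p = 0.22 and 0.20). Reduced in the same way by EDA, the 3 pairs had an edgeR adjusted p of 1. The EDB difference was thus not past the threshold in a fit whose spread comes from IGROV-1.

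The transcript with the largest share was ENST00000323926 in SK-OV-3, which has EDB and EDA, at 20.2% of all FN1 counts (18.2 to 22.2). In COV504 and COV362 it was ENST00000336916, with EDA alone, at 31.2% (27.6 to 35.0) and 42.2% (32.7 to 53.0). Next came ENST00000443816, without either exon, at 22.6% in COV504 and 38.9% in COV362. The other spliced segment of fibronectin, the variable region (chr2:215371909-215372375), lacked 93 nt in 54.2% of counts in SK-OV-3 (51.7 to 56.7), 56.7% in COV504 (52.6 to 60.6) and 81.5% in COV362 (72.2 to 88.4). It was whole in 20.8%, 18.5% and 6.30%. Only annotated transcripts can receive counts, so a combination of exons that is not annotated cannot be seen here.

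Between the instruments, 4 members had enough counts to be tested in the IGROV-1 libraries (FN1, THBS1, CYR61 and TIMP1), and 0 of them passed in edgeR, with 1 at an unadjusted p under 0.05 and 0 called by DESeq2, beside 0.817% of 10041 genes called by edgeR. CYR61 was 187.6 ± 4.98 CPM (SD, n = 2) on PromethION and 236.1 ± 18.3 on MinION. Its log2 difference was 0.29 ± 0.12 (SE, edgeR adjusted p = 0.28). With the replicate number as a block CYR61 passed (edgeR adjusted p = 0.0028), but the labels do not say that a number marks a shared culture or run. The 2 groups of CYR61 did not overlap, which held for 47.7% of all genes tested. FN1 was 12.9 ± 0.05 CPM on PromethION and 12.5 ± 1.10 on MinION (log2 difference -0.08, 95% interval -0.62 to 0.45), TIMP1 53.8 ± 10.8 and 61.3 ± 2.93 (0.15, -0.23 to 0.53), and THBS1 8.15 ± 7.91 and 6.52 ± 6.52 (-0.41, -2.19 to 1.37). The interval of THBS1 is the widest of the 4. The remaining 6 members had 0 to 3 counts in each IGROV-1 library.

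Related genes were counted in 7 lists, with values for the most abundant, and each count is set beside the share of all genes that differed from IGROV-1 in that line. Of 13 tested matricellular relatives of the members, 8 (61.5%) differed in COV504, 7 of them higher, beside 43.5% of all genes. In COV362 and OVMANA 7 (53.8%) differed, 6 of them higher in each, beside 42.5% and 35.4%. In OVKATE 5 (38.5%, 4 higher) and in OVTOKO 5 (38.5%, 3 higher) differed, beside 49.2% and 34.1%, and in SK-OV-3 3 (23.1%, 3 higher), beside 41.8%. The list was thus near or below the share of all genes in OVKATE, OVTOKO and SK-OV-3. SPP1, which encodes the integrin ligand osteopontin, ran from 8.90 CPM in OVKATE to 16461 in OVMANA, the line with 0 counts of FN1, SPARC, TGFBI and THBS1. FSTL1, a SPARC-related secreted protein, ran from 0 in OVMANA to 586.5 in SK-OV-3, and SPOCK2, a SPARC-related proteoglycan, from 0 in OVTOKO to 1044 in OVKATE. The list's median log2 change, with genes at 0 counts held at 3, was 2.05 in COV504 and 1.73 in OVMANA, and 0 in OVKATE and OVTOKO.

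Of 17 tested lysyl oxidases and collagen-processing enzymes, 11 (64.7%) differed in COV504 (9 higher) and 11 in COV362 (7 higher), beside 43.5% and 42.5% of all genes. In OVKATE 10 (58.8%, 6 higher) and in OVTOKO 9 (52.9%, 8 higher) differed, beside 49.2% and 34.1%. In SK-OV-3 8 (47.1%, 8 higher) differed, beside 41.8% of all genes, of which 22% were higher and 19.8% lower. In OVMANA 7 (41.2%, 4 higher) differed, beside 35.4% (18.9% higher and 16.5% lower). The list's median log2 change lay between 0 in OVMANA and 1.12 in COV504. The transglutaminase TGM2, which cross-links fibronectin, had 0 counts in both IGROV-1 PromethION libraries and 91.2 to 648.2 CPM in the other lines. P4HB, a subunit of collagen prolyl hydroxylase, and SERPINH1, a collagen chaperone, had 437.8 and 147.4 CPM in IGROV-1, and reached 1692 CPM in OVTOKO and 621.0 in COV362. IGROV-1 was lowest for SERPINH1, and for P4HB it lay level with COV362 (438.4 CPM).

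Of 19 tested matrix proteases and further TIMPs, 14 (73.7%) differed in each of COV504 (11 higher), COV362 (10 higher) and SK-OV-3 (9 higher), beside 43.5%, 42.5% and 41.8% of all genes. In OVKATE 8 (42.1%, 4 higher), in OVMANA 8 (5 higher) and in OVTOKO 7 (36.8%, 3 higher) differed, below or near the 49.2%, 35.4% and 34.1% of all genes. TIMP2, the inhibitor that also takes part in the activation of MMP2, ran from 120.9 CPM in IGROV-1 to 1369 in COV504, so that IGROV-1 was the lowest line for both TIMP1 and TIMP2. The epithelial protease MMP7 had 0.43 CPM in IGROV-1 and 289.1 in OVMANA, and the sheddase ADAM10 ran from 50.9 CPM in COV362 to 185.5 in IGROV-1. Of 26 tested matrix glycoproteins and proteoglycans, between 12 (46.2%, SK-OV-3, 9 higher) and 18 (69.2%, OVKATE, 9 higher) differed, beside 41.8% and 49.2% of all genes in these lines, and the proteoglycan VCAN had 0 CPM in OVKATE and 1019 in OVTOKO.

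Of 19 tested YAP and TAZ target genes other than the members, 15 (78.9%) differed in SK-OV-3, beside 41.8% of all genes, and 10 of them were lower, where 19.8% of all genes were. The median log2 change was -0.93, beside 0 over all genes. In OVTOKO 12 (63.2%, 7 higher) and in OVKATE 11 (57.9%, 7 higher) differed, beside 34.1% and 49.2% of all genes. In COV362 11 (57.9%, 6 higher), in COV504 10 (52.6%, 7 higher) and in OVMANA 9 (47.4%, 4 higher) differed, beside 42.5%, 43.5% and 35.4%. SK-OV-3 was the lowest line for CYR61 and also for the targets MYOF (61.8 CPM) and CRIM1 (50.6 CPM). OVKATE, the highest line for CTGF, was highest for IGFBP3 (376.9 CPM) and CRIM1 (409.0 CPM). These places did not hold for every target named. IGFBP3 was lowest in COV362 (18.4 CPM), with 39.5 CPM in SK-OV-3. MYOF had 90.02 CPM in OVKATE, lower than in IGROV-1 PromethION (log2 difference -0.78, edgeR adjusted p = 0.0498). CTGF itself was higher in SK-OV-3 than in IGROV-1 PromethION. Of 18 tested genes of TGF-beta signalling and its targets, 15 (83.3%, 13 higher) differed in COV504 and 14 (77.8%, 11 higher) in OVTOKO, beside 43.5% and 34.1% of all genes. In COV362 (10 higher), SK-OV-3 (9 higher) and OVKATE (7 higher) 12 (66.7%) differed, beside 42.5%, 41.8% and 49.2%, and in OVMANA 10 (55.6%, 6 higher), beside 35.4%. The median log2 change was 2.12 in COV504 and -0.22 in OVKATE. The receptor TGFBR2 ran from 22.3 CPM in OVKATE to 262.4 in OVMANA. Of 8 tested receptors of the members, 6 (75%) differed in each of OVTOKO (6 higher), SK-OV-3 (5 higher), OVKATE and COV362 (3 higher in each), beside 34.1%, 41.8%, 49.2% and 42.5% of all genes. In COV504 5 (62.5%, 4 higher) and in OVMANA 4 (50%, 3 higher) differed, beside 43.5% and 35.4%. ITGB1, the beta subunit of the main fibronectin receptor, ran from 132.4 CPM in COV362 to 1204 in OVTOKO.

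The genes most like each member over the 7 lines were named by Pearson's r of log2(CPM + 1) among the 8813 genes whose mean reached 10 CPM. They were EFNB2 (0.99) for SPARC, CAVIN3 (0.99) for TGFBI, LRP8 (0.98) and MSLN (0.98) for TIMP1 and TIMP3, and S100A2 (0.98) for CTGF. GLIPR1 (0.98) came nearest to LOX, ARNTL2 (0.96) to THBS1 and MAPKAPK5 (0.96) to CYR61. For FN1 the nearest row was a joined identifier of ELAC1, AC091551.1 and SMAD4 (0.99), followed by ZCCHC14 (0.97). POSTN was under 10 CPM in every line and was not ranked. With 7 values and 8813 genes, coefficients of this size are given as a description.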

How the data were processed

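The deposited tables give, per transcript and library, an estimated count and a value headed TPM; the authors' TPM equalled the CPM of the transcript to within 5.64e-11. Reads were aligned with minimap2 2.24-r1122 to GRCh38, per the submitters' processing notes, and further quantification settings were not given in the sources used here. RNA came from a column kit and libraries from a ligation kit, per the labels' protocols. Estimated counts were summed per gene, rounded to whole numbers and tested with edgeR 4.0.16 (R 4.3.3): TMM, default filter by group, quasi-likelihood test, two-sided, Benjamini-Hochberg adjustment, calls at an adjusted p under 0.05. Lines were fitted over all 10 libraries and instruments over the 4 IGROV-1 libraries. Transcript usage used edgeR's exon-level procedure with a Simes p per gene. DESeq2 1.42.0 and other settings were alternatives. Tests were tried on simulated counts in which all genes had the same dispersion. A log2 change of 1 was recovered for 11% of changed genes between pairs of lines and 44.5% against IGROV-1. At a log2 change of 2 these shares were 98% and 99.5%. Lines not called different in a pair may thus still differ by a log2 change of 1. False calls between instruments were 8.26% to 9.41%. Exons and member positions came from GENCODE 29, where all 29 member transcripts had the same position. Promoters came from RefSeq.

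The members and gene lists were chosen with earlier results of these data known. All 10 members are named, with the 3 most abundant genes of each list as candidates for naming, the 3 genes most correlated with each member, and transcripts with at least 5% of a gene's counts in a library with at least 50. Intervals and floors of 3 counts cover counting error only.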

Additional observations from a re-analysis of the deposited data

How the results depend on the processing

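The number of members called against IGROV-1, among the 7 lines and between pairs of lines stayed within 1.5 times under every alternative run. Between the instruments it was 0 in each except with the replicate number as a block, which called 1 member (CYR61, log2 0.29, edgeR adjusted p = 0.0028) and 1979 genes in place of 82. The numbers were not taken to pair the samples, since the labels do not say that they do and only 2 pairs exist. Same-numbered libraries did vary together, with deviations that correlated at r = 0.37 across genes, so the 2 IGROV-1 pairs may not be independent. Differences near 0 changed sign. CYR61 in OVKATE was 0.069 with RLE size factors, 0.058 with a filter at 10 CPM, 0.061 after thinning to equal depth, 0.071 with DESeq2, 0.016 with the 8 PromethION libraries alone, and -0.036 to 0.024 with an IGROV-1 library left out. CYR61 in OVTOKO was 0.0010 with RLE and 0.0012 with DESeq2. Between instruments THBS1 was -2.06 to 1.24 with a library left out, at 1.24 without PromethION replicate 2 and 0.37 without MinION replicate 1, and TIMP1 fell to -0.046 without PromethION replicate 1. DESeq2 called 3832 genes among the lines in place of 10590, and 1691 (SK-OV-3), 1585 (COV362), 1769 (COV504), 1464 (OVMANA), 1329 (OVTOKO) and 2117 (OVKATE) against IGROV-1 in place of 4443 to 6405, and 2890 genes were called in OVTOKO without MinION replicate 1. Between the instruments 15 genes were called without a filter, 49 in a fit of all 10 libraries, and 4 to 209 with an IGROV-1 library left out. Usage calls against IGROV-1 fell from between 64 and 235 genes a line to between 13 and 71 with a library left out, and between instruments from 178 to between 38 and 61, or 115 with a filter at 10 CPM. In the pairs of lines with FN1 they fell from between 19 and 34 to between 5 and 15, and that filter gave 33 for COV362 against COV504 (21 before) and 38 for SK-OV-3 against COV504 (19 before). The cause was not tested. TMM and RLE differed by at most 0.07 on the log2 scale. Sizes of change against IGROV-1 for SPARC, TGFBI, CTGF, LOX and TIMP3 are limited by its 0 to 3 counts, and FN1 exon shares in IGROV-1 and OVTOKO by 16 to 43 counts.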
